A study of Mus musculus with 8 samples.

Results

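The bodies of very long genes were followed as 503 protein-coding genes of chromosomes 1 to 19 that span 300 kb or more in the GENCODE vM1 annotation of mm9, out of 21418 protein-coding genes on these chromosomes. Each body was divided from its 5′ end (TSS) into full 10-kb tiles, 28030 in all, and the peaks whose midpoint fell in a tile were counted separately for each library. The study compared Lewis lung carcinoma (LLC) isografts, mouse tumors grown under the skin of C57BL/6J females of 6 to 8 weeks. LLC-NR cells respond to VEGF-Trap, a decoy that binds the growth factor VEGF. LLC-R cells came from the same line by repeated selection in mice under continuous VEGF-Trap and are resistant to it. For each of LLC-NR and LLC-R, nucleosomes released by micrococcal nuclease were precipitated with antibodies against H3K4me3, H3K9ac, H3K27me3 or H3K36me3. How many tumors a library holds is not given in the sources used here, and host blood vessel, immune and stromal cells are part of an isograft.

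Each mark was profiled by a single library in each of LLC-NR and LLC-R, which makes 8. Replicate error is therefore unknown and the lines cannot be tested against each other. The intervals below are binomial, over genes for shares and over peaks for ratios, and do not hold replicate error. Peaks numbered from 5660458 to 9101721 per library. They are positions of nucleosome size without height or strand, so the number of peaks in a tile levels off: the fullest tile of a member held between 43 and 51 peaks. The room above background differed between libraries. In LLC-NR, H3K36me3 had a mean of 23.0 peaks in distal tiles and its fullest member tile reached 2.0 times that mean, while in LLC-R the mean was 32.8 peaks and the fullest tile reached 1.55 times. Promoters of epithelial, lung, neuronal, leukocyte, endothelial and fibroblast marker genes held on average between 4.0 and 5.67 H3K4me3 peaks, near the LLC-NR mean of 4.98 and the LLC-R mean of 4.66 over all promoters, so numbers of peaks there did not separate cell types.

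H3K4me3 and H3K9ac are laid down around the start sites of active genes. H3K36me3 is deposited along the gene body by an enzyme that travels with elongating RNA polymerase II, whereas H3K27me3 is the mark of Polycomb repression. A gene of this size takes hours to transcribe, and many such genes encode neural adhesion molecules, receptors and ion channels, while others encode cytoskeletal, trafficking and chromatin proteins used in most tissues.

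Sequences upstream of the TSS are shown for long members because the marked and unmarked genes defined below differed in H3K4me3 and in CG dinucleotides at their 5′ ends. These are the 200 bases before the annotated 5′ end, in the direction of transcription, of the 3 longest marked and 3 longest unmarked members whose body lies mostly outside other genes and whose upstream bases overlap no annotated gene. They were read from NCBIM37, the assembly of mm9, and capitals mark CG dinucleotides. Pard3b, a cell polarity gene, is at chr1:61685198-61685397 on the plus strand, Odz4, a teneurin of neuronal adhesion, at chr7:103319554-103319753 on the plus strand, and Exoc4, a subunit of the exocyst, at chr6:33198885-33199084 on the plus strand. These 3 were marked.
Pard3b: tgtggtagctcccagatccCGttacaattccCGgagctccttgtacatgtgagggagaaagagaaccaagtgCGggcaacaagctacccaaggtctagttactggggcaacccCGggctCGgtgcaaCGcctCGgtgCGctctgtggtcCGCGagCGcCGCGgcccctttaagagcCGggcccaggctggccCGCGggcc
Odz4: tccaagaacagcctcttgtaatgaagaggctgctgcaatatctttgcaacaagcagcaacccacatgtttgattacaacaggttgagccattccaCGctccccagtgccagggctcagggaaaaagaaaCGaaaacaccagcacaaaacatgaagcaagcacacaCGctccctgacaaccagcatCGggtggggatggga
Exoc4: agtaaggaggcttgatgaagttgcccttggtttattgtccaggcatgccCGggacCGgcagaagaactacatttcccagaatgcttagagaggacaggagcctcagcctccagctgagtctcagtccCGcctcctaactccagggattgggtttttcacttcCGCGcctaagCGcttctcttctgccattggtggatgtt
The 3 unmarked members are Cntnap2, a neurexin-like adhesion protein (chr6:45009860-45010059, plus strand), Lrp1b, a lipoprotein receptor relative (chr2:42509119-42509318, minus strand), and Macrod2, which removes ADP-ribose from proteins (chr2:140220845-140221044, plus strand).
Cntnap2: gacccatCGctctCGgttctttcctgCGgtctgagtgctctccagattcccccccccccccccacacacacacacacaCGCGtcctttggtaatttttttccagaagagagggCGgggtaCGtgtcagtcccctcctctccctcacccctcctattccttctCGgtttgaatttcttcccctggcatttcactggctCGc
Lrp1b: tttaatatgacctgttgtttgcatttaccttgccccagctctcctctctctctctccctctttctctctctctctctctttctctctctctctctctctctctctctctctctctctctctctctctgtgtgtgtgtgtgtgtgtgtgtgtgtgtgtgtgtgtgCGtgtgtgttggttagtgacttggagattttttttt
Macrod2: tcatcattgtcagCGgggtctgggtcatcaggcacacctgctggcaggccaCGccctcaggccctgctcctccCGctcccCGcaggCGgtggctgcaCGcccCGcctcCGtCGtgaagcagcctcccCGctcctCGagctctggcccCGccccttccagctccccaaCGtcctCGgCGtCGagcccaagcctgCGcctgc
These windows held 16, 4 and 6 CG dinucleotides in the marked and 9, 1 and 17 in the unmarked members. Both the lowest and the highest count were thus those of unmarked members. In their first 10 kb, H3K4me3 counted 31, 22 and 33 peaks in LLC-NR, then 29, 16 and 27 in LLC-R, for Pard3b, Odz4 and Exoc4, against 23, 26 and 27 in LLC-NR, then 20, 20 and 21 in LLC-R, for Cntnap2, Lrp1b and Macrod2. Odz4 thus had the lowest H3K4me3 count of the 6 in both lines.

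Members were first set against shorter genes. A tile was called dense from the first count that at most 5% of 97241 distal intergenic tiles of the same library reached, where distal tiles lie at least 10 kb from any annotated gene, and a gene was called marked when at least 25% of its tiles were dense. By this measure 100 of the 503 members (19.9%, exact 95% interval 16.5 to 23.6) were marked by H3K36me3 in LLC-NR, and 40 (7.95%, 5.74 to 10.7) in LLC-R. The share was 51.5% in LLC-NR against 34.9% in LLC-R for the 1778 genes of 100 to 300 kb, and 63.3% and 51.0% for the 4770 genes of 30 to 100 kb. Over all 7051 genes of 30 kb or more, 57.2% were marked by H3K36me3 in LLC-NR against 43.9% in LLC-R, so very long genes were marked less often in both lines and the intervals of the length classes did not overlap. Counts are whole numbers, so the cut was not equally strict in each library: for H3K36me3, 4.53% of distal tiles were dense in LLC-NR but 2.67% in LLC-R. With tiles 1 peak below the cut weighted so that 5% of distal tiles were dense in every library, 105 members (20.9%) were marked by H3K36me3 in LLC-NR against 71 (14.1%) in LLC-R. The difference between the lines in numbers of marked genes therefore moved with the cut, while members stayed below the 57.5% and 53.2% of all genes of 30 kb or more. The limit itself parts like genes: Pam (300.5 kb), Nxph1 (300.6 kb) and Cntn3 (301.4 kb) stand just inside it with 83.3%, 0% and 0% of tiles dense in LLC-NR, and Jazf1 (299.8 kb), Pde1c (299.8 kb) and Akap13 (299.1 kb) just outside it with 17.2%, 0% and 48.3%.

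By the share of genes marked, the other marks followed the same order. H3K4me3 marked 13 members of LLC-NR and 15 of LLC-R, where the share over genes of 30 kb or more was 31.1% and 31.8%. H3K9ac marked 18 members of LLC-NR and 65 of LLC-R, against 31.5% and 41.5% of genes of 30 kb or more. No order between the lines holds for H3K9ac, where 2.64% of distal tiles were dense in LLC-NR but 4.9% in LLC-R. With the weighted cut 65 members were marked in each line, against 46.4% and 41.5% of genes of 30 kb or more. The order turned with 10% of distal tiles in place of 5% (26.4% and 22.9% of members), in 20-kb tiles (17.9% and 14.5%), with peaks counted by overlap (9.34% and 7.36%) and in tiles with at least 90% unique 32-base words (6.81% and 4.61%). H3K27me3 marked 4 members of LLC-NR and 0 of LLC-R (upper limit of the interval 0.731%), against 7.36% and 4.38%. With the weighted cut H3K27me3 marked 22 and 12 members, against 10.2% and 9.7% of genes of 30 kb or more. The first tile weighs less in a longer gene, so a mark that sits at the TSS is diluted by this measure. A shorter gene also has fewer tiles, so fewer dense tiles are enough to mark it, by chance as well. For H3K27me3 in LLC-NR the share marked was 8.78%, 5.4% and 0.795% from the shortest class to the longest, while its median level, given below, rose. The part of tile number in the order of the length classes was not tested for any mark.

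**Figure D1:**
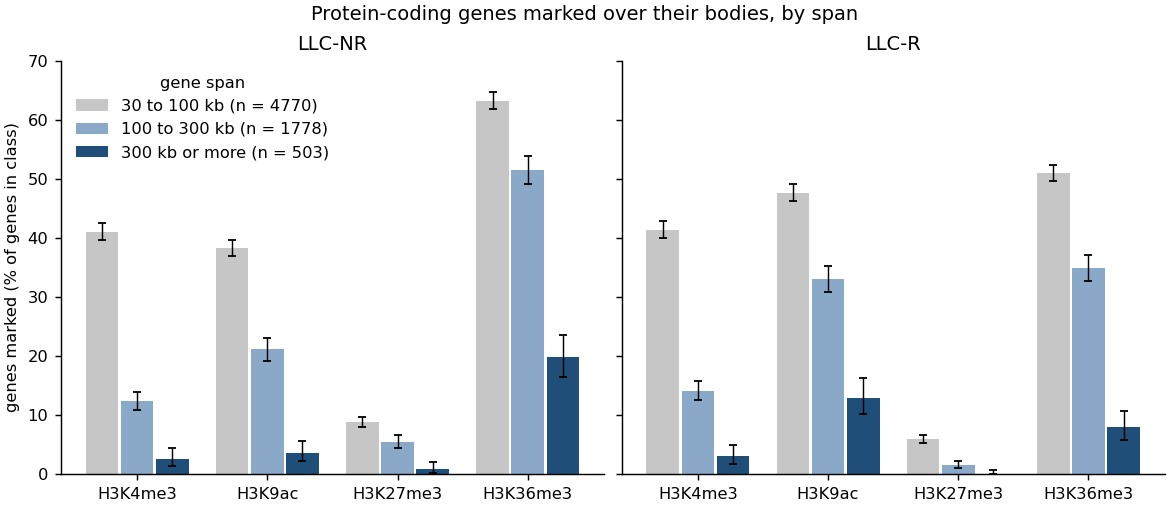
Percent of protein-coding genes marked over their bodies (vertical axis) for the 4 marks, in LLC-NR (left) and LLC-R (right), by gene span; error bars are exact 95% binomial intervals over genes. The bars of genes of 300 kb or more are the lowest of each set, with H3K36me3 at 19.9% in LLC-NR against 7.95% in LLC-R.

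The level of a gene, given here as the log2 of its mean peaks per tile over the distal mean, fell in a narrow band. The median H3K36me3 level of members was 0.17 for LLC-NR and 0.15 for LLC-R, against 0.40 and 0.23 for genes of 100 to 300 kb and 0.54 and 0.30 for genes of 30 to 100 kb. H3K27me3 ran the other way in LLC-NR, with a median of 0.07 in members, 0.02 in genes of 100 to 300 kb and -0.11 in genes of 30 to 100 kb. In LLC-R its 3 medians lay within 0.10 and 0.12. H3K9ac had medians of 0.19 and 0.20 in members, and H3K4me3 of 0.06 and 0.09, in LLC-NR and LLC-R.

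Levels just above 0 moved with the share of unique sequence (only uniquely mapped reads were kept). On average 89.3% of sampled 32-base words were unique in member tiles and 81.6% in distal tiles. With only tiles of at least 90% unique words on both sides, the median of members was 0.06 for H3K36me3 in LLC-NR against 0.02 in LLC-R, while H3K4me3 (-0.06 and -0.03) and H3K27me3 (-0.07 and -0.01) were below the distal mean. The order of the length classes held there: 19.4%, 50.8% and 62.8% of genes were marked by H3K36me3 in LLC-NR from the longest class to the shortest, and 11.2%, 40.5% and 54.5% in LLC-R.

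Lpp, a LIM protein of focal adhesions (chromosome 16, 24393436 to 24992662, plus strand), had the highest H3K36me3 level of all members in LLC-NR. Its 59 tiles held 39.2 ± 3.08 H3K36me3 peaks (SD over tiles) in LLC-NR against 40.4 ± 2.96 in LLC-R, and 94.9% of them were dense in LLC-NR against 23.7% in LLC-R. Dst, which links cytoskeletal filaments (chromosome 1, 33965125 to 34365495, plus strand), held 38.9 ± 4.85 peaks in LLC-NR against 41.6 ± 4.85 in LLC-R over 40 tiles, with 90% and 42.5% dense. The next were Snd1, a nuclease-domain RNA-binding protein (87.0% of tiles dense in LLC-NR), Stag1, a cohesin subunit (86.1%), Pam, which amidates peptide hormones (83.3%), and Nbas, of Golgi-to-ER transport (83.9%). These 6 led LLC-NR and ranked 33, 6, 17, 35, 15 and 49 of 503 in LLC-R. So the raw numbers of peaks of Lpp and Dst were as high in LLC-R as in LLC-NR, while the background they stood on was higher.

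At the other end stood genes with little unique sequence. Gm3739, Gm10406, BB287469 and Rasgrf2 were below 50% of the distal mean in all 8 libraries, and less than 50% of their 32-base words were unique. Rasgrf2, an exchange factor for Ras, holds 654 kb of unknown bases. Skint6, of an immunoglobulin-like family of skin and thymus, had a unique share of 72.5% but only 10.1 ± 4.6 H3K36me3 peaks per tile in LLC-NR against 20.8 ± 7.64 in LLC-R, and its H3K27me3 counts were 7.29 ± 3.98 and 20.2 ± 7.1. Skint6 and its neighbor in the family Skint5 were low in both marks and both lines. The part of unique sequence in these values was not tested.

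Of all member tiles, 219 in 27 genes held at most 2 peaks in each of the 8 libraries. Unknown bases made up most of 136 of them, and 72 others had under 10% unique words and 11 from 10 to 50%. A stretch of 40 kb near the 3′ end of Cntnap2, from 2070 to 2110 kb after its TSS, was of this kind, with 1.25% unique words. No tile held at most 4 peaks in every mark of one line and at least 12 in every mark of the other. Tiles empty in LLC-NR alone (0) or LLC-R alone (0) were thus not seen, the genes of common fragile sites included. Host cells are part of an isograft and peaks carry no height, so these counts cannot tell whether tumor cells lost such tiles.

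The 10 longest members were all unmarked by H3K36me3 in both lines. Gm20388 (4435 kb) and Fgfr2, a fibroblast growth factor receptor (3009 kb in this annotation), span many other genes: 52.6% and 58.0% of their tiles overlap another protein-coding gene. Their dense shares of 23.5% and 15% in LLC-NR are therefore those of whole gene clusters, and the longest dense runs of both lie inside other genes. The remaining 8 had dense shares of at most 8.25% in LLC-NR. Cntnap2 (chromosome 6, 45010060 to 47251368, plus strand) held 24.6 ± 6.76 H3K36me3 peaks per tile in LLC-NR against 34.4 ± 8.19 in LLC-R, which is 0.10 and 0.07 above the distal mean on the log2 scale. Fhit, a tumor suppressor at a fragile site (chromosome 14, 10382606 to 11994549, minus strand), was below the distal mean for every mark in both lines: 17.1, 27.6, 22.6 and 19.3 peaks per tile in LLC-NR and 18.8, 27, 33.9 and 32.3 for LLC-R, in the order H3K4me3, H3K9ac, H3K27me3 and H3K36me3. Nrxn3, a presynaptic neurexin (chromosome 12, 89961320 to 91573375, plus strand), was the highest of the 8 in LLC-R, where 16.8% of its tiles were dense against 6.83% in LLC-NR. Ptprd, Lrp1b, Macrod2, Dlg2 and Csmd1 lay between them.

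The 100 members marked by H3K36me3 in LLC-NR were then set against the other 403. The H3K36me3 counts of LLC-NR chose the classes, so only the other 7 libraries are compared. In LLC-R, the median H3K36me3 level was 0.25 in marked and 0.12 in unmarked genes, which is 39.1 against 35.8 peaks per tile, and 97 of the 100 marked genes lay above the unmarked median. H3K9ac separated the classes about as well: its medians were 0.34 against 0.15 in LLC-NR, where 98 marked genes lay above the unmarked median, and 0.32 against 0.16 in LLC-R, where 91 did. For H3K4me3 the gap was smaller, 0.14 against 0.04 in LLC-NR and 0.13 against 0.08 in LLC-R, with 75 and 61 marked genes above the unmarked median. H3K27me3 was lower in marked genes, -0.05 against 0.10 in LLC-NR and 0.09 against 0.12 in LLC-R, with 74 and 60 of them below the unmarked median. These differences depended on how genes were chosen. At spans from 500 kb that of H3K4me3 (-0.00658) and H3K27me3 (0.0256) turned in LLC-R, and that of H3K27me3 in LLC-NR shrank to -0.0136. Between the genes highest and lowest in H3K36me3 over H3K27me3 in LLC-NR, H3K4me3 turned in both lines (-0.0314 and -0.0316), and the H3K9ac difference was 0.0687 in LLC-NR but 0.00063 in LLC-R. The ranges overlapped for every mark, and the gap in H3K27me3 in LLC-R was small beside the interquartile range of the unmarked genes, 0.03 to 0.20.

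In LLC-R, H3K36me3 exceeded H3K27me3, both relative to their distal means, in 95 marked genes but only in 200 of the 403 unmarked genes. Across the 503 members, Spearman's rho between the levels of H3K36me3 and H3K27me3 was 0.111 in LLC-NR against 0.514 in LLC-R, and between H3K36me3 and H3K9ac 0.798 and 0.856. These are descriptions of genes that share libraries and unique sequence, and the level itself had a rho with the unique share of 0.306 for H3K36me3 in LLC-NR against 0.691 in LLC-R.

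**Figure D2:**
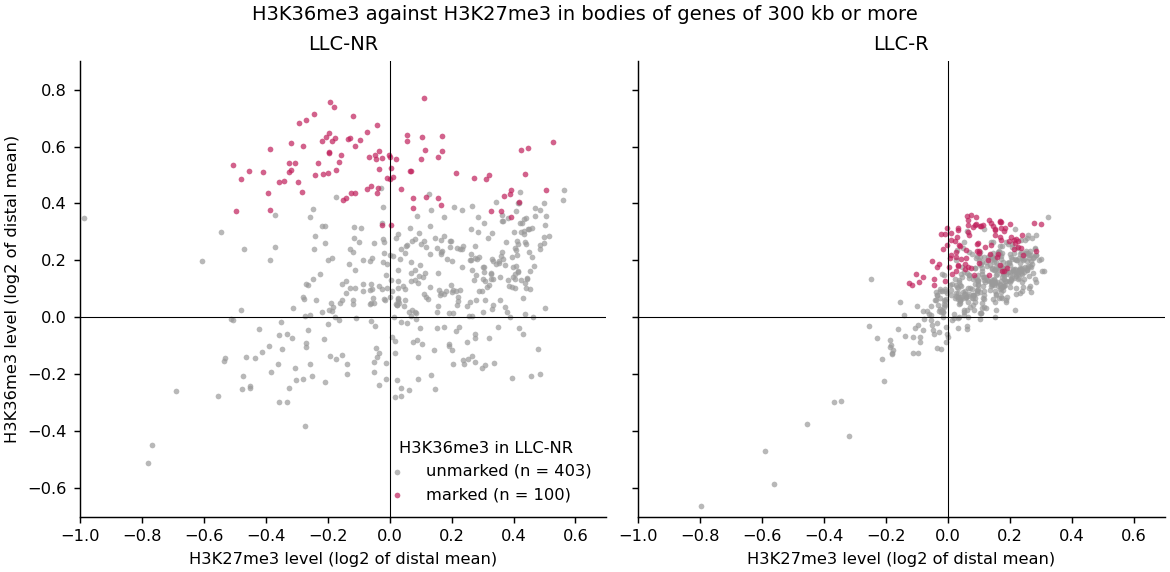
Level of H3K36me3 (vertical axis) against H3K27me3 (horizontal axis), both as log2 of the distal mean, for members marked (red, n = 100) and unmarked (grey, n = 403) by H3K36me3 in LLC-NR. The left panel chose the classes by its vertical axis; in the right panel (LLC-R) both axes span less and the marked genes lie in the upper part; 6 genes lie off the lower axes.

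Marked genes were slightly shorter and slightly richer in unique sequence. Their median span was 400.0 kb against 450.0 kb, their median G+C content 41.5% against 40.8% and their median unique share 91.9% against 90.8%. A CG-rich 5′ end was also more common among them: a median of 15.5 CG dinucleotides lay in the 200 bases upstream of marked and 10 upstream of unmarked genes. At least 10 were present in 66.0% of marked and 53.6% of unmarked members, beside 59.5% of all genes of 30 kb or more.

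In the first tile H3K4me3 averaged 32.2 ± 5.01 peaks (SD over genes) in marked and 25.4 ± 5.44 in unmarked genes of LLC-NR. The LLC-R values were 29.3 ± 4.82 and 25.3 ± 4.65. In the promoter window, which begins 1 kb before the TSS and ends 0.5 kb after it, marked genes held 6.16 ± 1.22 H3K4me3 peaks and unmarked genes 4.70 ± 1.59 in LLC-NR. The LLC-R values were 5.46 ± 1.31 and 4.68 ± 1.36. H3K9ac there showed the same order (means of 6.15 and 4.53 for LLC-NR, 5.54 and 4.43 for LLC-R) and H3K27me3 the reverse (4.90 and 5.35, then 5.77 and 6.04). H3K36me3 in the promoter was alike in both classes of LLC-R, 5.13 ± 1.02 and 5.03 ± 1.3. In LLC-NR, the library that chose the classes, the values were 3.04 ± 1.53 and 2.92 ± 1.43.

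Along the first 300 kb, H3K4me3 was highest at the 5′ end. In marked genes H3K4me3 was 1.52 times the distal mean in the first tile of LLC-NR, 1.23 times in the next and between 1.06 and 1.14 times after that, while H3K9ac stayed between 1.21 and 1.29 times after the first tile. H3K36me3 of LLC-NR, whose counts chose these genes, was at 1.41 times in the first tile and between 1.36 and 1.51 times after it, which the choice of genes by itself favors. In LLC-R, marked genes held H3K36me3 at 1.19 times the distal mean in the first tile and 1.14 to 1.21 times after it. Unmarked genes were at 1.12 times in the first tile of LLC-R and lower, at 1.04 to 1.09 times, after it. Unmarked genes had H3K27me3 at 1.17 times in the first tile of LLC-NR and at 1.05 to 1.1 times after it.

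**Figure D3:**
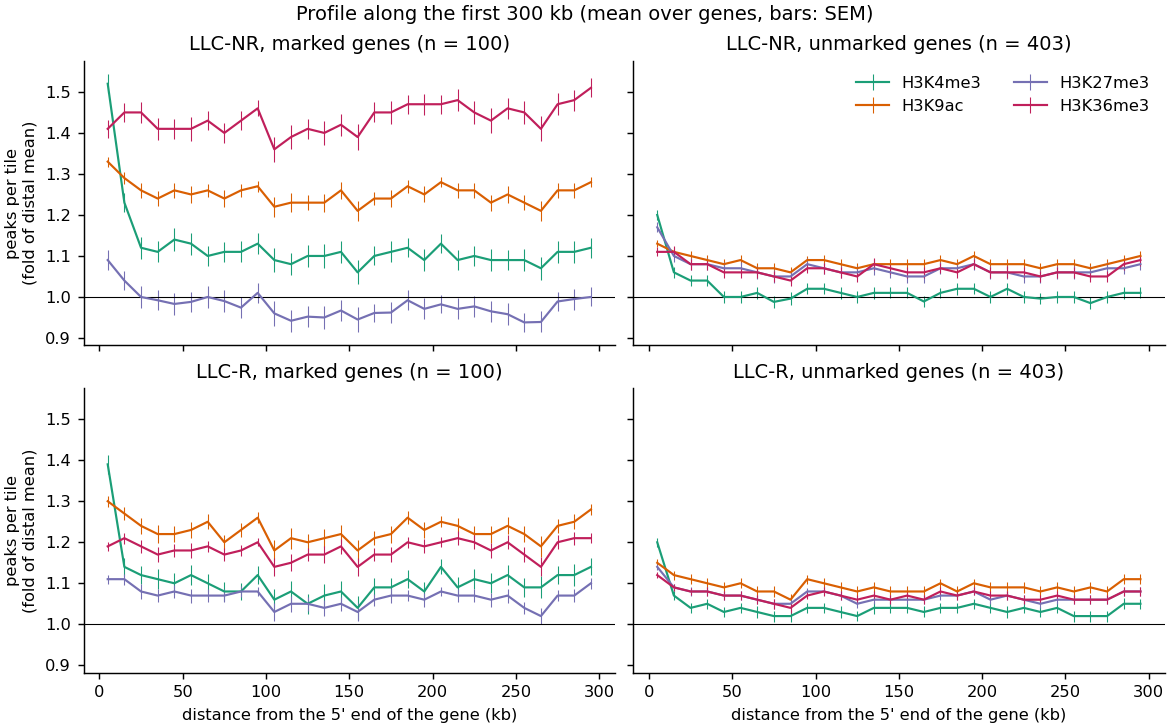
Mean peaks per 10-kb tile as fold of the distal mean (vertical axis, not starting at 0) against the distance from the 5′ end (horizontal axis, kb) for marked and unmarked members in each line; bars are standard errors over genes. H3K4me3 starts at 1.52 times in marked genes of LLC-NR and drops within 20 kb, whereas H3K36me3, which chose the classes in LLC-NR, lies between 1.36 and 1.51 times after the first tile.

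With the body cut into 3 equal parts without the first tile, medians of H3K36me3 in marked genes were 32.8, 32.9 and 34.3 peaks per tile from 5′ to 3′ in LLC-NR, against 39.2, 39.0 and 40.0 in LLC-R. The last of these was higher than the first in 57 of 100 marked genes in LLC-NR and in 61 in LLC-R, and in 220 of 403 unmarked genes in each line. A lean toward the 3′ end was therefore small and far from general.

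Adjacent dense tiles of H3K36me3 formed runs. In LLC-NR 82 members had at least 50 kb of adjacent dense tiles, and 34 had at least 100 kb, while 190 members had no dense tile. The longest run was in Snd1, 240 kb, although 75% of its tiles overlap another protein-coding gene. It was followed by Lpp with 230 kb, Ank3, an ankyrin of membrane scaffolds, with 220 kb, and Nav3, a microtubule-binding protein, and Utrn, a dystrophin relative, with 210 kb each. Genes close to the limit of 25% were Hivep3, Cadm1 and Kcnt2 (25% each) and Adk (25.6%) inside and Msi2 (23.8%), Palld and Dlc1 (23.7% each) outside. Of the 82 runs, 76 were in marked genes, but runs and marked classes come from the same dense tiles. The midpoint of 47 of these 76 runs lay nearer to the 3′ end of the gene. The other 6 were in Gm20388, Fgfr2, Scfd2, Dock3, Kcnq1 and Park2, with those of Gm20388 and Fgfr2 inside other genes. In Odz4 the run covered 590 to 730 kb of the gene. H3K36me3 of LLC-NR averaged 38.4 peaks inside it and 28.0 outside, an order that the definition of a run sets in advance. In LLC-R the same tiles of Odz4 held 41.9 and 37.4 peaks. Over the 82 genes, H3K36me3 of LLC-R was higher inside the LLC-NR run than outside it in 79, and H3K9ac of LLC-NR in 74, while H3K27me3 of LLC-NR was lower inside in 40. Tiles dense for H3K36me3 in LLC-NR held more unique words than other member tiles (95.8% against 88.4%). The part of unique sequence in these counts was not tested.

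Dense tiles themselves recurred between lines. Of the 3357 member tiles dense for H3K36me3 in LLC-NR, 28.1% were dense in LLC-R, against 3.41% of the other 24673. Among tiles with at least 90% unique words the shares were 29.5% and 4.48%. H3K9ac was dense in 18.6% of the H3K36me3-dense tiles and 2.76% of the rest in LLC-NR, whereas for H3K27me3 the shares were 3.49% and 1.89%.

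**Figure D4:**
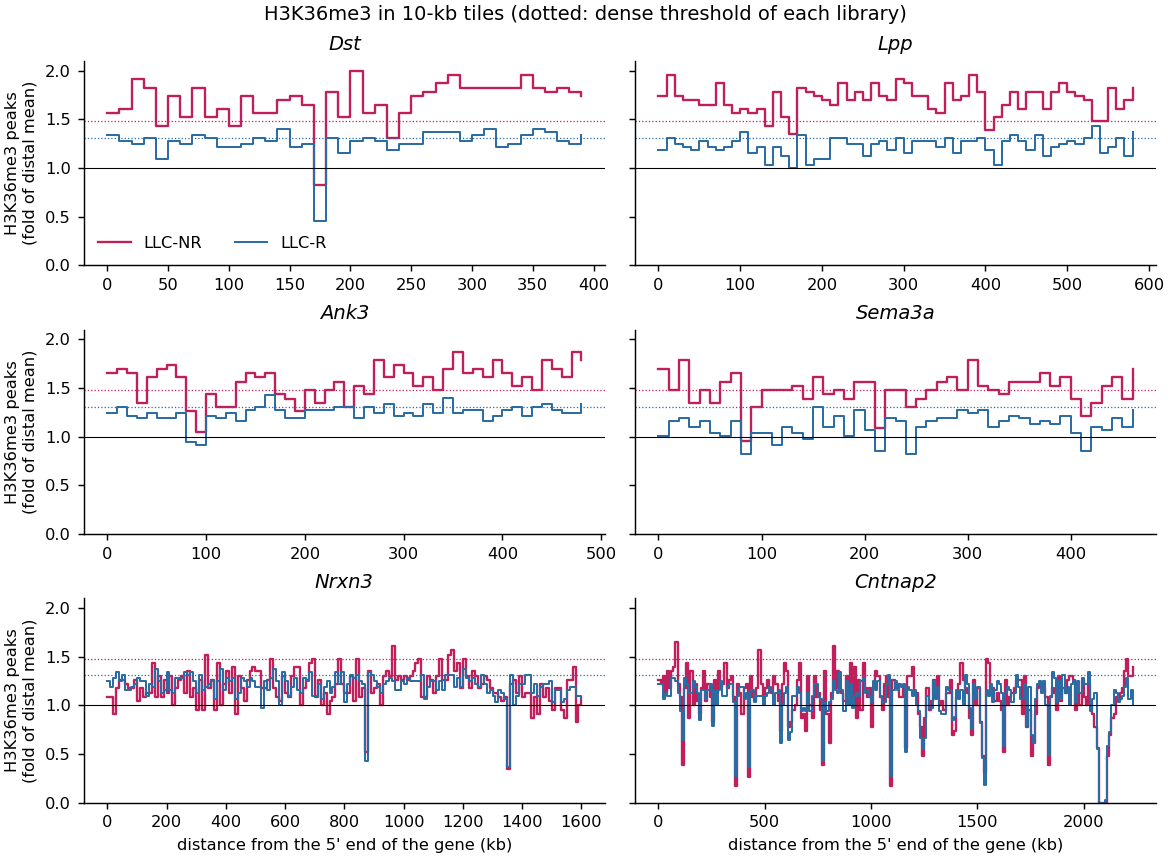
H3K36me3 peaks per 10-kb tile as fold of the distal mean (vertical axis) against the distance from the 5′ end (horizontal axis, kb) in Dst, Lpp, Ank3, Sema3a, Nrxn3 and Cntnap2; red is LLC-NR, blue LLC-R, and dotted lines are the dense thresholds of the libraries. LLC-NR lies above its threshold over most of Dst (90% of tiles) and Lpp (94.9%), while Nrxn3 and Cntnap2 stay near or below the thresholds, and the drop near the 3′ end of Cntnap2 is the stretch without unique sequence.

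Gene lists were drawn up from textbook roles with earlier results of these data known, so their counts are descriptions, to be read beside the share over all members, 19.9% in LLC-NR but 7.95% in LLC-R. Of 43 genes of cell adhesion, many of them neuronal, 2 (4.65%) were marked by H3K36me3 in LLC-NR (Odz4 and Cadm1) and 0 in LLC-R. Their median level was 0.07 in LLC-NR, against 0.17 over all members. Odz4 had 43.8% of its tiles dense in LLC-NR against 20.5% in LLC-R, and Cadm1 25% and 12.5%, so Cadm1 stood exactly at the limit. The 3 longest adhesion genes, Cntnap2, Nrxn3 and Ctnna3, had dense shares of 2.23%, 6.83% and 0%.

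Axon guidance genes had 1 marked member of 16 (6.25%, 0.158 to 30.2), the secreted repellent Sema3a. It held 34.1 ± 3.58 H3K36me3 peaks per tile in LLC-NR against 36.4 ± 4.0 in LLC-R, and its rank among members was 34 in LLC-NR against 253 in LLC-R. The share of dense tiles of Sema3a was 68.1% in LLC-NR against 2.13% in LLC-R. The receptors Dcc and Epha6 had no dense tile in LLC-NR. None of 6 receptor phosphatases and none of 15 glutamate and GABA receptors was marked in either line. The upper limits of their intervals were 45.9% and 21.8%.

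Channels, with 5 marked genes of 28 in LLC-NR (17.9%, 6.06 to 36.9), were near the share over all members: the potassium channels Kcnq5, Kcnt2 and Kcnh1 and the inositol trisphosphate receptors Itpr1 and Itpr2, which release calcium inside cells. Kcnh1, Itpr1 and Itpr2 were marked in LLC-R too. So were the 23 scaffold and synaptic genes (17.4%, 4.95 to 38.8), of which 4 were marked in LLC-NR (Nbea, Ank2, Ank3 and Gphn) and 2 in LLC-R (Ank2 and Ank3). Several of these marked members are known outside neurons, among them the inositol trisphosphate receptors, the ankyrins and Gphn, which also makes molybdenum cofactor. Together the 6 neural lists held 131 members, with 12 marked in LLC-NR (9.16%, 4.82 to 15.5) and 5 in LLC-R (3.82%).

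Genes listed as broadly expressed were marked in 29 of 38 cases in LLC-NR (76.3%, 59.8 to 88.6) and 18 in LLC-R (47.4%, 31 to 64.2). Among them were chromatin and transcription genes (Arid1b with 62.9% of tiles dense in LLC-NR, Cux1 with 51.6%, Foxp1 with 38.2%), cytoskeletal genes (Dst, Macf1, Utrn) and genes of signaling and trafficking (Prkca, Dock4, Exoc4, Tbc1d5). Their median level was 0.51 for H3K36me3 and -0.14 for H3K27me3 in LLC-NR. In LLC-R these medians were 0.28 and 0.08. The 9 unmarked ones were Fhit, Nfib, Prkg1, Tnik, Camta1, Rora, Wwox, Zbtb20 and Immp2l, of which Immp2l holds 381 kb of unknown bases. Of the 328 members in no list, 58 (17.7%) were marked in LLC-NR and 17 (5.18%) in LLC-R. Of 17 genes known from fragile sites, Nbea and Large were marked in LLC-NR (11.8%, 1.46 to 36.4, an interval that holds the 19.9% of all members), and LLC-R had 0 (0 to 19.5). In tiles with at least 90% unique words, 29 of 38 broadly expressed and 11 of 131 neural genes were marked in LLC-NR. In LLC-R these counts were 22 and 6. With the weighted cut they were 29 and 12 in LLC-NR, against 22 and 8 in LLC-R.

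**Figure D5:**
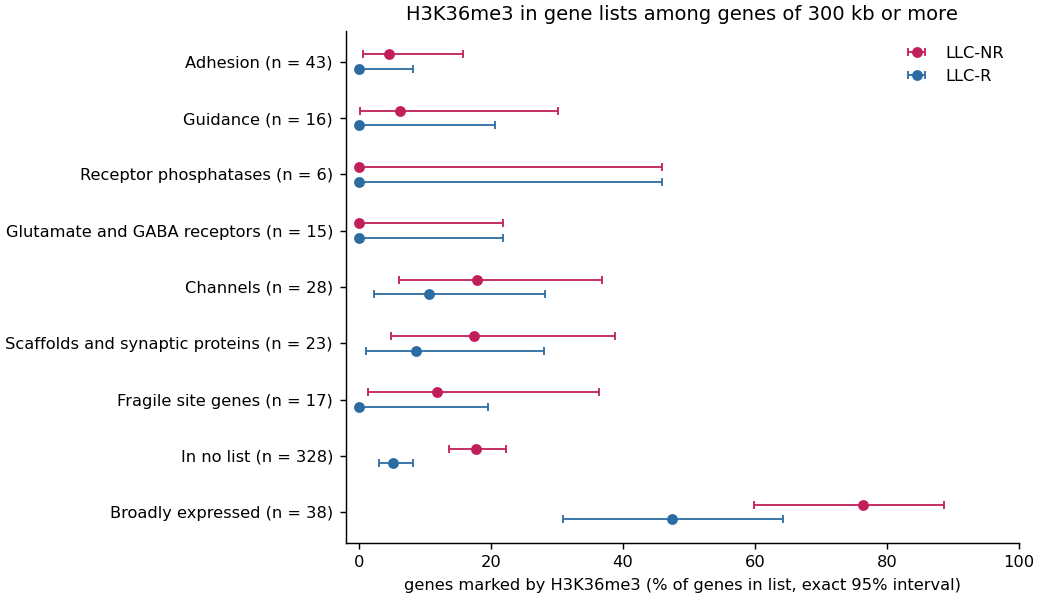
Percent of genes marked by H3K36me3 (horizontal axis) in each list of long genes (vertical axis), in LLC-NR (red) and LLC-R (blue), with exact 95% intervals. Broadly expressed genes stand at 76.3% and 47.4%, while the neural lists lie between 0 and 17.9%.

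H3K27me3 was led by Myt1l, a zinc finger factor of neurons (chromosome 12, 30213249 to 30608074, plus strand). It held 41.8 ± 2.69 H3K27me3 peaks per tile in LLC-NR against 43.9 ± 1.42 in LLC-R, the highest level of this mark in both lines. Myt1l was also rich in the active marks, with 79.5% of its tiles dense for H3K9ac and 41.0% for H3K36me3 in LLC-R, and 98.8% of its words were unique. Next in LLC-NR came Kalrn, an exchange factor of synaptic spines (41.7 ± 3.73 peaks), Itpr2 (40.7 ± 4.17), the nuclear receptor Rora (40.4 ± 2.43), Phactr1 (40.2 ± 2.54) and Kif26b, a kinesin (40.1 ± 2.42). Itpr2 and Kif26b were marked by H3K36me3 in LLC-NR as well, Itpr2 with 82.1% of its tiles dense. Only Myt1l, Kalrn, Itpr2 and 4930485B16Rik passed 25% for H3K27me3 in LLC-NR.

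LLC-R was last set against LLC-NR gene by gene. Log2 ratios of levels were taken, and a gene was counted when past 1.2-fold, beside the share of all 2281 genes of 100 kb or more that were past it. H3K36me3 was lower in LLC-R in 59 members (11.7%) and higher in 24 (4.77%), while 30.6% and 4.34% of genes of 100 kb or more were. H3K27me3 was higher in 68 members (13.5%) and lower in 2 (0.398%), against 24.9% and 1.97%. H3K4me3 was higher in 29 and lower in 9, against 5.92% and 3.20%, and H3K9ac higher in 6 and lower in 1, against 0.658% in each direction. Long genes thus passed the fold less often than genes of 100 kb or more in the 2 directions that dominated.

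Of the 59 genes lower in H3K36me3, 57 were marked in LLC-NR, the library that defines both quantities, and all 100 marked genes had a log2 ratio below 0. Lpp had the lowest log2 ratio, -0.47 (95% counting interval -0.55 to -0.39), then Sema3a with -0.42 (-0.52 to -0.32), Stag1 with -0.42 (-0.53 to -0.31) and Slc9a9, a sodium-proton exchanger of endosomes, with -0.42 (-0.51 to -0.33). The distal mean that scales these ratios was 23.0 peaks in LLC-NR against 32.8 in LLC-R. For H3K27me3 it was 28.3 against 35.1, and the fullest member tile reached 1.73 and 1.43 times it. By the study's totals, LLC-R had more uniquely mapped reads than LLC-NR for H3K36me3 and H3K27me3, and fewer for H3K4me3 and H3K9ac. The part of depth in the ratios was not tested. With scaling by uniquely mapped reads, 99.2% of members were lower in H3K36me3 and 98.6% lower in H3K27me3, and with scaling by the peaks of a library 9.54% of members were higher and 4.37% lower in H3K36me3, so direction rests on the scaling. Places in the order of genes do not depend on it, and neither do the marked classes, although these rest on the cut: 38 of the 100 genes marked in LLC-NR (38.0%) were marked in LLC-R and made up 95% of the 40 marked there, and 63 of them were among the 100 highest of LLC-R. Myt1l and Nav2 were marked in LLC-R only. With the weighted cut 59 genes were marked in both, 56.2% of those of LLC-NR and 83.1% of those of LLC-R. Sema3a left the upper ranks, although its raw peaks per tile were not fewer in LLC-R, and Slc9a9 went from rank 11 to 106. The rho of H3K36me3 level with the unique share was 0.306 in LLC-NR against 0.691 in LLC-R. The part of unique sequence, and of counts that level off, in these ranks was not tested.

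For H3K27me3 the largest log2 ratios, 1.34 in Gm3739 and 1.16 in Skint6, came from genes with few peaks in LLC-NR (0.233 and 7.29 per tile), followed by Skint5 with 0.85 and Gm10406 with 0.75. For H3K36me3 the largest were those of Gm10406, BB287469, Skint6 and Gm3739, again genes with few peaks. The lowest H3K27me3 ratios were those of Kalrn, -0.30 (-0.38 to -0.22), Dock3, -0.29 (-0.41 to -0.17), Dync1i1, -0.26, and Pde11a, -0.25. In raw counts these genes did not have fewer peaks: Kalrn held 41.7 per tile in LLC-NR against 42.1 in LLC-R. For H3K4me3 of Kalrn, where the distal means of LLC-NR and LLC-R were 21.15 and 21.09 peaks, the counts were 28.9 ± 3.96 in LLC-NR against 20.4 ± 3.62 in LLC-R, a log2 ratio of -0.50 (-0.60 to -0.39), and Kalrn was lower in all 4 marks. Lpp, on the same chromosome 16, held 30.1 ± 3.71 and 22.1 ± 3.78 H3K4me3 peaks, a log2 ratio of -0.44 (-0.55 to -0.34). These genes stood apart on chromosome 16, where the median log2 ratio of the 17 members was 0.05 for H3K4me3 and 8 members were higher in all 4 marks against 2 lower.

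H3K4me3 differences gathered on a few chromosomes. Of the 29 members higher in LLC-R, 11 were on chromosome 5, where there are 37 members, and 10 on chromosome 18, where there are 20. Between bases 127722178 and 133019214 of chromosome 5 lie Tmem132c (18.3 and 25.6 H3K4me3 peaks per tile in LLC-NR and LLC-R), Caln1 (19.6 and 26.4), Tmem132d (19.7 and 25.6), Wbscr17 (21.4 and 27.2) and Auts2 (20.8 and 25.9), which were chosen after their values were seen. In all 5 the other 3 marks were higher in LLC-R too. On chromosome 18 the median log2 ratio of members was 0.27 for H3K4me3, 0.10 for H3K9ac, 0.14 for H3K27me3 and 0.15 for H3K36me3, and 11 of 20 members were higher in all 4 marks. On chromosome 15 the medians were -0.13, -0.08, -0.05 and -0.05, and 8 of 19 members were lower in all 4. Chromosome 1 had the most members lower in all 4 marks, 16 of 46, and 0 higher, and on chromosome 14 there were 10 of 32 higher and 1 lower. Over all chromosomes 82 members were higher in all 4 marks and 69 lower in all 4. No share over all genes of 100 kb or more was taken for these counts or by chromosome. Whether they belong to long genes or to all genes of these chromosomes is therefore not known. DNA copy number was not measured and cannot be told apart from these shifts.

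Of the genes that the study lists with its expression differences, Plcb4, Mecom and Fgf14 are members, all listed as downregulated in LLC-R. For the listed genes the study set expression beside marks in promoters, whereas the values here are those of gene bodies. It also reported that H3K36me3 over gene bodies rose with transcription level, across classes of promoters. Expression was not used here, so neither comparison was tested for Plcb4, Mecom and Fgf14. None of these genes was marked by H3K36me3. Plcb4, a phospholipase of G protein signaling, held 27.8 ± 3.87 H3K36me3 peaks per tile in LLC-NR against 38.0 ± 2.72 in LLC-R, a log2 ratio of -0.07 (-0.19 to 0.06). Mecom, a zinc finger oncogene of blood cells, had 29.1 ± 3.69 and 39.6 ± 3.82, a log2 ratio of -0.07 (-0.16 to 0.02). Fgf14, which binds sodium channels, had 19 ± 5.18 and 30.7 ± 7.18, below the distal mean in both lines, and its log2 ratios were 0.18 (0.08 to 0.28) for H3K36me3 and 0.37 (0.27 to 0.47) for H3K27me3.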

How the data were processed

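Reads had been aligned by the authors to mm9 (Bowtie 0.12.7, at most 2 mismatches), only uniquely mapping ones were kept, and GeneTrack gave the peaks of every library separately. Its settings are not given in the sources used here. The deposited lists hold chromosome, start and end of each peak, with an end minus start of 146 bp in every row, and no score, read count or strand. No input library was used here. Uniquely mapped reads per library, used only for an alternative scaling, are the totals the study gives.

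GENCODE vM1 supplied the gene models and NCBIM37 the sequence. Peak midpoints were counted in 10-kb tiles from the 5′ end of each gene, and a final incomplete tile was left out. Distal tiles lie on chromosomes 1 to 19, at least 10 kb from any annotated gene, without unknown bases. The design named the 95th percentile of distal tiles as the cut for a dense tile. The cut applied is 1 peak above it, the first count that at most 5% of distal tiles reach, and from 2.26% to 4.9% of distal tiles were dense. The percentile itself and a cut weighted to 5% were added as alternatives. Unique sequence is the percent of 32-base words, sampled every 500 bases, that occur once in the genome. Shares have exact Clopper-Pearson 95% intervals, which treat genes as independent draws although the members are all genes that meet the rule. Intervals of log2 ratios are exact binomial intervals of the peaks of both libraries, with the distal means taken as fixed. They take peaks as independent draws, although the number of peaks in a tile levels off. No interval holds replicate error, since each group is 1 library, and no p-value is given. Marking and ratios were tested on simulated Poisson counts for genes of 100 kb or more, and counting on a sample of real tiles. The simulated counts did not level off and had no repeats, so the test could not show effects of either, or of tile number in shorter genes.

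The members, lists and thresholds were chosen with earlier results of these data known. Named genes are the 10 longest, the 6 highest and lowest in H3K36me3 and H3K27me3 in LLC-NR, the 4 with the largest ratios of each sign in these marks, the 3 longest and all marked members of each list, and members among genes the study lists. Not every gene that meets this rule is described. Other genes named were chosen after their values were seen. Tables were made with pandas 2.3.3 on Python 3.11.15, intervals with SciPy 1.17.1, counts with NumPy 2.4.6 and figures with Matplotlib 3.10.9.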

Additional observations from a re-analysis of the deposited data

How the results depend on the processing

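Each line and mark has 1 library, peaks carry no height, counts per tile level off and differ in room between LLC-NR and LLC-R, and host cells share the tissue, so differences between LLC-NR and LLC-R are descriptions. No paired analysis was possible because each group is 1 library and the labels carry no shared replicate numbers. The alternative without repeat-masked tiles was not run, as the genome sequence carries no masking. The alternatives of unique tiles, of tiles without unknown bases and of the 2 other cuts for a dense tile were chosen after seeing the data. Under these alternatives 167 values moved by less than their limit, 155 moved further and 10 changed sign. The values that moved or changed sign follow, and their cause was not tested unless the setting itself changes the genes or thresholds used.

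With the 90th percentile, the members marked by H3K4me3, H3K9ac, H3K27me3 and H3K36me3 were 7.95%, 26.4%, 11.5% and 31.6% in LLC-NR, and the members marked by H3K4me3, H3K9ac, H3K27me3 and H3K36me3 were 12.3%, 22.9%, 14.7% and 16.9% in LLC-R. With a percentile above the 95th, the members marked by H3K4me3, H3K9ac and H3K27me3 were 0%, 0.795% and 0.199% in LLC-NR, and the members marked by H3K4me3, H3K9ac and H3K36me3 were 0.596%, 1.19% and 2.19% in LLC-R. With 10% of tiles dense, the members marked by H3K4me3, H3K9ac, H3K27me3 and H3K36me3 were 11.3%, 20.9%, 8.55% and 33.6% in LLC-NR, and the members marked by H3K4me3, H3K9ac, H3K27me3 and H3K36me3 were 12.7%, 33%, 5.57% and 24.5% in LLC-R. With 50% of tiles dense, the members marked by H3K4me3, H3K9ac, H3K27me3 and H3K36me3 were 0.199%, 0%, 0% and 11.9% in LLC-NR, and the members marked by H3K4me3, H3K9ac and H3K36me3 were 0.398%, 1.59% and 0.596% in LLC-R. In 5-kb tiles, the members marked by H3K4me3, H3K9ac, H3K27me3 and H3K36me3 were 0%, 0.795%, 1.39% and 12.7% in LLC-NR, and the members marked by H3K4me3, H3K9ac and H3K36me3 were 0.398%, 4.57% and 0.199% in LLC-R. In 20-kb tiles, the members marked by H3K4me3, H3K9ac and H3K27me3 were 4.37%, 17.9% and 4.17% in LLC-NR, and the members marked by H3K4me3, H3K27me3 and H3K36me3 were 6.56%, 6.36% and 19.3% in LLC-R. For spans from 200 kb, the members marked by H3K4me3, H3K9ac, H3K27me3 and H3K36me3 were 4.29%, 8.69%, 2.2% and 31.7% in LLC-NR, and the members marked by H3K4me3, H3K9ac and H3K36me3 were 5.06%, 20% and 16.5% in LLC-R. For spans from 200 kb, the members lower in LLC-R in H3K9ac, H3K27me3 and H3K36me3 were 0.33%, 1.1% and 19.3%. For spans from 200 kb, median log2 levels of H3K4me3, H3K9ac and H3K36me3 were 0.0895, 0.242 and 0.237 in LLC-NR, and median log2 levels of H3K4me3, H3K9ac and H3K36me3 were 0.108, 0.238 and 0.169 in LLC-R. For spans from 200 kb, the marked minus unmarked median log2 levels of H3K27me3 were -0.283 in LLC-NR, and the marked minus unmarked median log2 levels of H3K4me3 and H3K27me3 were 0.111 and -0.0597 in LLC-R. For spans from 500 kb, the members marked by H3K4me3, H3K9ac and H3K36me3 were 1.6%, 1.06% and 12.8% in LLC-NR, and the members marked by H3K9ac and H3K36me3 were 7.45% and 2.66% in LLC-R. For spans from 500 kb, the members higher in LLC-R in H3K4me3 and H3K36me3 were 2.66% and 2.13%. For spans from 500 kb, the members lower in LLC-R in H3K9ac and H3K36me3 were 0% and 6.91%. For spans from 500 kb, median log2 levels of H3K9ac and H3K36me3 were 0.114 and 0.117 in LLC-NR, and median log2 levels of H3K9ac and H3K36me3 were 0.138 and 0.123 in LLC-R. For spans from 500 kb, the marked minus unmarked median log2 levels of H3K9ac and H3K27me3 were 0.236 and -0.0136 in LLC-NR, and the marked minus unmarked median log2 levels of H3K4me3 and H3K27me3 were -0.00658 and 0.0256 in LLC-R. Counting peaks by overlap of 1 bp, the members marked by H3K4me3, H3K9ac and H3K27me3 were 1.39%, 9.34% and 3.58% in LLC-NR, and the members marked by H3K4me3, H3K9ac, H3K27me3 and H3K36me3 were 4.57%, 7.36%, 1.59% and 12.1% in LLC-R. In tiles with 90% or more unique words, the members marked by H3K4me3 and H3K9ac were 0.401% and 6.81% in LLC-NR, and the members marked by H3K4me3 and H3K9ac were 1% and 4.61% in LLC-R. In tiles with 90% or more unique words, the members higher in LLC-R in H3K9ac were 0.601%. In tiles with 90% or more unique words, the members lower in LLC-R in H3K9ac and H3K27me3 were 0% and 0.2%. In tiles with 90% or more unique words, median log2 levels of H3K4me3, H3K9ac, H3K27me3 and H3K36me3 were -0.0629, 0.0558, -0.0686 and 0.0603 in LLC-NR, and median log2 levels of H3K4me3, H3K9ac, H3K27me3 and H3K36me3 were -0.0331, 0.0546, -0.00641 and 0.0192 in LLC-R. In tiles with 90% or more unique words, the marked minus unmarked median log2 levels of H3K9ac and H3K27me3 were 0.156 and -0.245 in LLC-NR. With the cut at the 95th percentile itself, the members marked by H3K4me3, H3K9ac and H3K27me3 were 4.77%, 13.9% and 5.57% in LLC-NR, and the members marked by H3K4me3, H3K9ac, H3K27me3 and H3K36me3 were 6.36%, 22.9%, 3.18% and 16.9% in LLC-R. With the cut at the 95th percentile itself, the marked minus unmarked median log2 levels of H3K9ac were 0.206 in LLC-NR. Scaled by all autosomal tiles, median log2 levels of H3K4me3, H3K9ac and H3K36me3 were -0.0355, 0.072 and 0.0105 in LLC-NR, and median log2 levels of H3K4me3, H3K9ac, H3K27me3 and H3K36me3 were -0.0113, 0.0883, 0.0749 and 0.0677 in LLC-R. With the cut weighted to 5% of distal tiles, the members marked by H3K9ac and H3K27me3 were 12.9% and 4.37% in LLC-NR, and the members marked by H3K4me3, H3K27me3 and H3K36me3 were 4.57%, 2.39% and 14.1% in LLC-R. Scaled by uniquely mapped reads, the members higher in LLC-R in H3K4me3, H3K9ac, H3K27me3 and H3K36me3 were 62.6%, 100%, 0.398% and 0.199%. Scaled by uniquely mapped reads, the members lower in LLC-R in H3K4me3, H3K9ac, H3K27me3 and H3K36me3 were 0%, 0%, 98.6% and 99.2%. Past 1.1-fold, the members higher in LLC-R in H3K4me3, H3K9ac, H3K27me3 and H3K36me3 were 19.9%, 3.98%, 30.6% and 15.9%. Past 1.1-fold, the members lower in LLC-R in H3K4me3, H3K9ac, H3K27me3 and H3K36me3 were 7.95%, 1.19%, 20.9% and 27.2%. Past 1.5-fold, the members higher in LLC-R in H3K4me3, H3K9ac, H3K27me3 and H3K36me3 were 0.199%, 0.199%, 0.994% and 0.199%. Past 1.5-fold, the members lower in LLC-R in H3K4me3, H3K9ac, H3K27me3 and H3K36me3 were 0%, 0%, 0% and 0%. With each mark relative to the other 3, the members higher in LLC-R in H3K4me3, H3K9ac and H3K36me3 were 0.795%, 0% and 0.795%. With each mark relative to the other 3, the members lower in LLC-R in H3K4me3, H3K9ac and H3K27me3 were 0.596%, 0.994% and 3.38%. Scaled by the peaks of a library, the members higher in LLC-R in H3K36me3 were 9.54%. Scaled by the peaks of a library, the members lower in LLC-R in H3K27me3 and H3K36me3 were 1.79% and 4.37%. With classes from LLC-R, the marked minus unmarked median log2 levels of H3K4me3 and H3K9ac were 0.156 and 0.215 in LLC-NR, and the marked minus unmarked median log2 levels of H3K4me3 and H3K9ac were 0.227 and 0.196 in LLC-R. With the genes highest against those lowest in H3K36me3 over H3K27me3 in LLC-NR (3 equal groups, the middle one left out), the marked minus unmarked median log2 levels of H3K4me3 and H3K9ac were -0.0314 and 0.0687 in LLC-NR, and the marked minus unmarked median log2 levels of H3K4me3, H3K9ac, H3K27me3 and H3K36me3 were -0.0316, 0.00063, -0.155 and 0.0645 in LLC-R.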
